A study of Drosophila melanogaster with 12 samples.

Results

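Cytoplasmic ribosomal protein mRNAs encode the proteins of the cytoplasmic ribosome, which reads every nuclear mRNA. The genes were taken by FlyBase symbol, as those named RpL or RpS with a digit, RpLP0, RpLP1, RpLP2 and sta, without the paralog pairs that have germline forms (RpS5a and b, RpS10a and b, RpS19a and b, RpL22 and RpL22-like). This gave 80 genes of the 17023 in the count tables. Another 4 genes with such names (RpS12, RpL19, RpL27A and RpL31) carry current identifiers that did not match the tables and were not analysed here. Of the 80 genes, 76 passed the filter on low counts, and 74 of these had a mean of at least 100 CPM (counts scaled to a common library size by edgeR's TMM method) over all libraries. By symbol, these 74 were grouped as 45 of the large (60S) and 29 of the small (40S) subunit, with RpL24-like counted among the 45. The 4 genes that did not pass (RpL10Aa, RpL7-like, RpS28-like and RpS28a) are copies with no more than 3 counts in any library.

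The data were poly(A) RNA libraries of Drosophila ovaries, from input RNA (a share of the whole lysate) and from the polysome fraction of sucrose gradients, where mRNAs with several ribosomes sediment. The young control (YWT, UAS-Dcr2;nosGAL4) was dissected within 2 hours of eclosion and served the study as its germarial control. In the Nop60B RNAi ovaries, dissected at the same age, nosGAL4 drove RNA interference in the germline against Nop60B, the pseudouridine synthase of the H/ACA complex, which modifies rRNA. The cyst control (nosGAL4>bam RNAi;hs-bam) received repeated heat shocks of 2 hours at 37°C as young adults, which express bam and release cysts into differentiation. All 3 conditions carry nosGAL4, which drives the RNAi transgenes in the germline, while hs-bam is induced by heat. Whole ovaries pooled from many females were sequenced, with their somatic cells. Each condition had 2 input and 2 polysome libraries. The input and polysome library of 1 number were taken to come from 1 lysate, which the sample titles do not state.

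A ribosome needs 1 copy of nearly every ribosomal protein. Loss of 1 copy of many of them gives the Minute phenotype of slow growth and thin bristles. In flies their transcription often begins at a pyrimidine-rich TCT-type initiator. In mammals the corresponding mRNAs start with a 5′ terminal oligopyrimidine (TOP) tract, through which the kinase mTORC1 and the protein LARP1 control their translation.

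Start-site sequences are shown because this initiator set the genes apart from the rest of the genome. The letters CTTT were searched on the gene's strand, starting within 5 bases of the annotated start of the Ensembl canonical transcript. They were found for 38 of the 76 tested genes (50%), for 5.57% of 9239 other tested protein-coding genes, and for 5.66% of all 13629 protein-coding genes. Of 70 mitochondrial ribosomal protein genes, 3 (4.29%) held them. The DRE, TATCGATA, searched on both strands from 250 bases before to 50 after the start, was held by 24 of the 76 (31.6%), by 11.9% of the other tested genes and by 8.8% of all. The motif 1 core, GTCACACT, searched the same way, was held by 9 (11.8%), 8.8% and 6.41%. CTTT and the DRE occurred together in 12 genes. The windows below hold the 15 bases before the annotated start, the start and the 14 bases after it, on the gene's strand, from the Release 6 genome (dm6), with CTTT in capitals where it was found. RpL3 and RpS3 lie on the plus strand at chr3R:11221879-11221908 and chr3R:23358797-23358826, and RpS7 on the minus strand at chr3R:30208928-30208957. RpS27A and RpL40 lie on the plus strand at chr2L:10408337-10408366 and chr2L:4227684-4227713.
RpL3: cggaagtcggaatcgtttCTTTtccgtttt
RpS3: gcgcgggcacactggcctCTTTcttttctg
RpS7: tcgtggctcgacttcCTTTcctgtcaaaat
RpS27A: cacgctgtgtgtgtgttCTTTctttccttt
RpL40: tcggcggcggccacactctCTTTtcccttt
The windows of 3 genes without these letters near the start are shown because the results describe their mRNAs in detail. Other mRNAs described in detail, such as RpL3, RpL39, RpL38 and RpL13, do hold them. The 3 genes are RpS2 (chr2L:9897507-9897536, minus strand), RpL24-like (chr3R:11431568-11431597, minus strand) and RpS20 (chr3R:20822166-20822195, plus strand).
RpS2: tctaagcggatggctcggccatttcgtttt
RpL24-like: ctgctgactgccgatacattttcatatttc
RpS20: gacaccctgtaaaacttctcttcgttttca
A match is a description of letters, and the annotated start may differ from the start used in the ovary.

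Total counts ranged from 2780781 in cyst control polysome replicate 1 to 21626125 in young control polysome replicate 2. The libraries differed in cell type markers as well as in treatment. The summed level of 8 germline markers was 3437.5 and 2975.5 CPM in the young control inputs, 369 and 429 in the Nop60B RNAi inputs, and 1268 and 2878 in the cyst control inputs. The summed level of 6 muscle markers was 3001 and 3455 CPM, 19330.0 and 18484 CPM, and 13348 and 3532 CPM in the same order. The sum of 7 hemocyte markers was 79.7 and 73.2 CPM in the young control inputs and 1461 and 1364 CPM in the Nop60B RNAi inputs. The defining germline markers vas and nos did not match the tables, but osk (1844 and 1424 CPM in the young control inputs) and otu were present. The germline sum thus rested in large part on osk. The 8 markers had log2 fold changes from -8.64 to -0.42 in Nop60B RNAi input against the young control. All 8 were below 0, beside 4895 of all 10035 genes. Both cyst control replicates 1 stood apart from their replicates 2, with heat shock genes summing to 25447 and 14354 CPM in inputs 1 and 2. Nop60B mRNA itself was at 1553 and 1776 CPM in the young control inputs and 446 and 462 CPM in the RNAi inputs (log2 fold change -1.87, adjusted p = 0.0242 by edgeR's quasi-likelihood test). It was also low in the cyst control inputs, at 336 and 748 CPM (-1.62 against the young control, edgeR adjusted p = 0.0394). Between Nop60B RNAi and cyst control inputs its log2 fold change was -0.26 (edgeR adjusted p = 0.746). The study reported a block before egg chambers in the depleted germline. In these bulk libraries, fewer cells of a type, other germline stages and less RNA per cell cannot be told apart.

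The 80 genes took up a large share of all counts, and that share was highest in the young control and always lower in polysomes than in the input of the same condition. In the young control inputs they held 28.01% and 28.7% of all counts. Its polysomes had 19.0% and 16.4%. The Nop60B RNAi libraries held 20.2% and 15.6% in input and 10.8% and 9.67% in polysomes. In the cyst control they were 16.2% and 13.9% in input and 10.2% and 11.0% in polysomes. No young control input overlapped any other library, and no polysome library overlapped the inputs of its own condition.

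**Figure D1:**
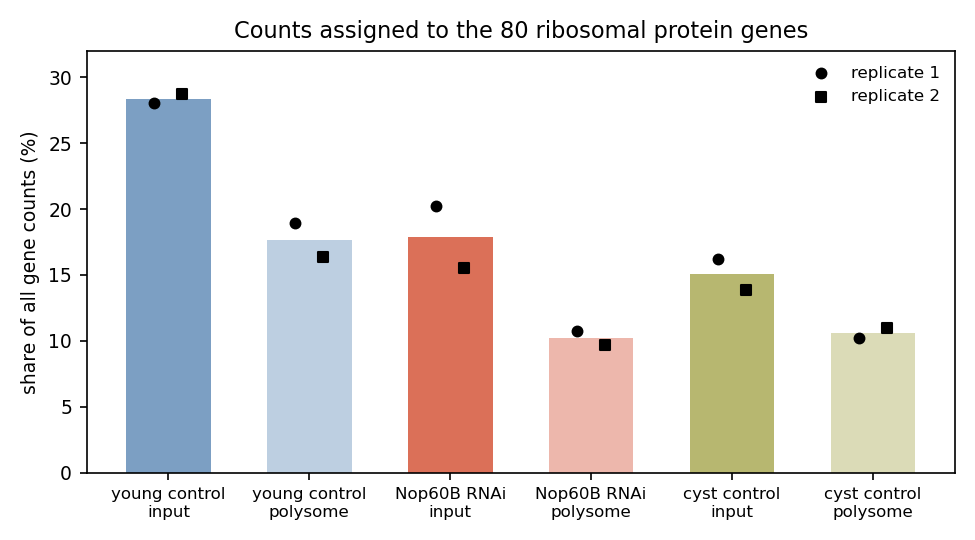
Share of all gene counts (%, y axis) assigned to the 80 cytoplasmic ribosomal protein genes in each of the 6 groups (x axis). Bars are means of 2 libraries and points are the libraries; the young control inputs, at 28.01% and 28.7%, are above all others.

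The genes are spread over the genome, with 18 of the 80 on 2L, 17 on 2R, 13 on 3L, 20 on 3R, 1 on chromosome 4 and 11 on the X. Levels of different mRNAs were compared only per kb of annotated exon. In the young control inputs the 74 abundant mRNAs had a median of 4422 and 4726 CPM per kb, and the 90th percentile was 2.92 and 3.27 times the 10th. This spread was similar in polysomes, at 2.93 and 3.38 times. It was widest in the cyst control replicates 1, at 4.53 times in input and 4.87 times in polysomes, against 3.31 and 3.32 times in replicates 2. Across the 74 mRNAs the order of levels in the young control input had a Spearman correlation of 0.914 with the Nop60B RNAi input, 0.868 with the cyst control input and 0.855 with its own polysomes. These correlations are across genes that share the same libraries and lengths and are given as descriptions.

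The highest level per kb in the young control input was that of RpL41 (chr2R:24903416-24903935, minus strand), the smallest ribosomal protein, with 27905 CPM per kb. RpL23, of the large subunit, followed with 12827, and RpS27A, made as a fusion with ubiquitin, with 11317. The mRNA of sta, the ribosomal protein SA of the small subunit, was at 10803 and 10151 CPM in the young control inputs and 4885 and 4782 in its polysomes. The lowest were 3 genes whose names mark them as copies. RpL37-2 had 1.67 CPM per kb, RpS15Ab 162 and RpL24-like 832. Reads of near-identical copies may have been assigned to either copy or left out, so RpL37-2, RpS15Ab, RpS14a and RpS14b are uncertain. RpL24-like differs in kind from the others, since its yeast counterpart Rlp24 is a ribosome assembly factor.

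The comparison of Nop60B RNAi with the young control asks how these mRNAs stand when the enzyme for rRNA pseudouridylation is depleted from the germline. Nearly all of them were lower in the RNAi ovaries, by a similar amount in input and in polysomes. In input, the libraries did not overlap for 72 of the 74 abundant mRNAs, all lower in RNAi, while 38% of all tested genes were lower without overlap. The median log2 fold change of the 76 tested mRNAs was -0.83 (interquartile range -0.99 to -0.71), against 0.02 over all 10035 genes. In polysomes 71 of 74 were lower without overlap (34.6% of all genes), and the median was -0.80 (-0.92 to -0.67), against -0.08 over all genes. Both subunits had similar medians in input, -0.81 for 45 large and -0.86 for 29 small subunit mRNAs.

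Few of these differences passed the test gene by gene. With Benjamini-Hochberg adjustment over all genes in edgeR's quasi-likelihood test, 1 mRNA fell in input (1.23% of all genes were called lower) and 1 in polysomes (3.26% of all genes). At an unadjusted P under 0.05, 33 of 76 were lower in input and 32 in polysomes, beside 7.99% and 13.3% of all genes. The study's rule for polysome association was a 2-fold change and an unadjusted P under 0.05, and it was applied here to input as well. By this rule 17 were lower in input and 12 in polysomes, beside 6.35% and 11.7% of all genes, and 1, RpL37-2, was higher in input, beside 11.5%. DESeq2 called 15 and 9 lower, beside 5.21% and 9.77% of all genes. The count depended on the cyst control libraries, which share the estimate of spread. Without these 4 libraries, an alternative chosen after seeing the data, 50 of the mRNAs were called lower in input and 46 in polysomes, where 15.7% and 20.9% of all genes were called lower. With only the libraries of the comparison, 64 and 34 were called, beside 29.5% and 12.5% of all genes. The median stayed between -1.11 and -0.60 in input, and between -0.97 and -0.65 in polysomes, when 1 library was left out.

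**Figure D2:**
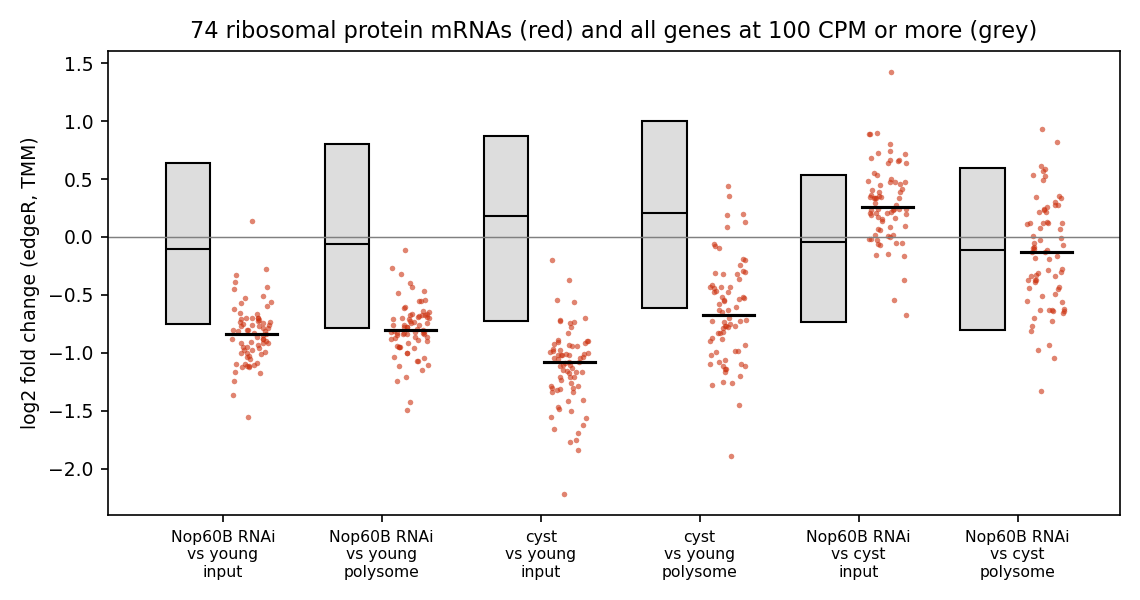
Log2 fold changes (y axis, edgeR with TMM scaling) of the 74 abundant ribosomal protein mRNAs (red points, black line at their median) and of all 1983 tested genes with a mean of at least 100 CPM (grey box, quartiles and median) in 6 comparisons. The red points lie low against the young control in both fractions and straddle 0 or lie slightly above it between Nop60B RNAi and the cyst control.

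The mRNA called lower in input was RpS2 (FBgn0004867, chr2L:9896265-9897552, minus strand), which encodes uS5 of the small subunit. It was at 5983 and 6429.5 CPM in the young control inputs, 2549 and 1678 in the Nop60B RNAi inputs, and 1305 and 1358 in the cyst control inputs. The 3 conditions did not overlap. Its log2 fold change in Nop60B RNAi input was -1.55 (standard error 0.36, edgeR adjusted p = 0.0377), and it ranged from -1.89 to -1.29 when 1 library was left out, with adjusted p from 0.128 to 0.303. In polysomes RpS2 was at 4811 and 3472 CPM in the young control and 2155 and 1788.5 CPM in Nop60B RNAi, a log2 fold change of -1.07 (adjusted p = 0.0845).

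The mRNA called lower in polysomes was RpL24-like (FBgn0037899, chr3R:11430740-11431582, minus strand), whose yeast counterpart, as given above, is a ribosome assembly factor. Its levels were 519.8 and 538.8 CPM in young control polysomes and 192 and 183 CPM in Nop60B RNAi polysomes, against 618 and 668 and then 397 and 252 CPM in the inputs. The log2 fold change was -1.49 in polysomes (standard error 0.32, edgeR adjusted p = 0.0210) and -0.99 in input (adjusted p = 0.111). When any 1 of the 4 polysome libraries was left out, the adjusted p ranged from 0.103 to 0.15. The difference between the fractions, -0.51 (standard error 0.44), did not pass the test (adjusted p = 1.00).

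At the other end, RpL39, a short protein of the ribosome's exit tunnel, was the only abundant member not lower in Nop60B RNAi input. It was at 484.9 and 723 CPM in the young control inputs and 611 and 719 in the RNAi inputs, so the groups overlapped (log2 fold change 0.14, standard error 0.45). The sign turned to -0.20 without young control input replicate 1. RpL36A and RpS29, a zinc-binding protein of the small subunit, followed with log2 fold changes of -0.28 and -0.32. The lowest after RpS2 were RpS14b at -1.36 and RpL13 at -1.24. In polysomes the most negative values beside RpL24-like were those of RpS15Ab (-1.74, standard error 0.92) and RpL38 (-1.42), and the least negative those of RpS29 (-0.11), RpS20 (-0.27) and RpL37A (-0.32). Without young control polysome replicate 1, the values of RpS29 and RpL37A turned to 0.27 and 0.045, and without Nop60B RNAi polysome replicate 2 that of RpS29 turned to 0.30.

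Members picked for their role were lower in Nop60B RNAi input by differing amounts, and none passed the test. The stalk proteins, which bind translation factors, had log2 fold changes of -1.002 (RpLP0), -0.53 (RpLP1) and -0.51 (RpLP2), against the family median of -0.83. RpLP0 was at 6636 and 6550 CPM in the young control inputs and 4010 and 2575 CPM in the RNAi inputs. RpLP1 was at 4807.5 and 5148 against 3925 and 2975 CPM, and RpLP2 at 3529 and 3607 against 3275 and 1732.5 CPM. None of the 3 overlapped between the conditions, and 72 of the 74 abundant mRNAs and 38% of all genes were likewise lower without overlap. RpS6, the substrate of S6 kinase, was at 4607 and 4745 against 3580 and 2353 CPM (log2 fold change -0.66). RpL26 was at 3586 and 3970 against 2684 and 1634 CPM (log2 fold change -0.81, adjusted p = 0.205). The ubiquitin fusion RpL40 was at 3802 and 3645 against 2614 and 1856 CPM, and RpS27A at 6438 and 6962 against 4106 and 3754 CPM. In each of these the RNAi input replicate 2 was the lower, as in the family, whose median difference between the RNAi inputs was 0.56 on the log2 scale.

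The copies listed under the same name did not all keep to this pattern. RpL37-2 was at 0.872 and 0.539 CPM in the young control inputs and 16.4 and 9.01 CPM in the RNAi inputs, while RpL37-1 was at 5032 and 5335.5 against 3588 and 2342 CPM. The log2 fold change of RpL37-2, 3.91 (standard error 1.52), did not pass the test (adjusted p = 0.177). RpS14a and RpS14b, adjacent genes on the X, had -0.57 and -1.36, and RpS15Aa and RpS15Ab had -1.10 and -0.94. RpL34a and RpL34b had -1.17 and -0.70. None of these 6 passed after adjustment.

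In the cyst control input the family was lower still against the young control. The libraries did not overlap for 70 of 74 mRNAs, all lower in the cyst control (30.2% of all genes were lower without overlap), and the median log2 fold change of the 76 was -1.08, against 0.19 over all genes. After adjustment 8 mRNAs fell (RpL10, RpL10Ab, RpL15, RpL24-like, RpL26, RpS2, RpS9 and sta), where 1.98% of all genes were called lower, and 59 of 76 had an unadjusted P under 0.05 beside 8.35% of all genes. The study's rule took 50, beside 7.45%, and DESeq2 called 45, beside 6.95%. RpS2 had the largest change of the 76, -2.22 (standard error 0.36, edgeR adjusted p = 0.0151). RpL26, the large subunit protein, was at 1124 and 1210 CPM in the cyst control inputs, a log2 fold change of -1.69 (adjusted p = 0.0250). RpS9 fell by 1.77 (adjusted p = 0.0299) and sta by 1.66 (adjusted p = 0.0444). RpS15Ab and RpS14b had values of -2.13 and -1.84 that did not pass. The least negative were RpL38 (-0.20), RpL29 (-0.37) and RpL41 (-0.55). RpL38 rested on 1 library, since it was at 4631 and 1023 CPM in cyst control inputs 1 and 2, and without input replicate 2 its value turned to 0.46. Without both cyst control replicates 1 the median was -1.53 and 73 mRNAs were called lower, beside 12% of all genes. With only the libraries compared 27 were called, beside 3.54%. When 1 library was left out, fewer were called than with all libraries, and the median ranged from -1.38 to -0.98.

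In cyst control polysomes the difference from the young control was smaller and less even. The median log2 fold change was -0.67, against 0.09 over all genes, and 47 of 74 mRNAs were lower without overlap (24% of all genes). Without cyst control polysome replicate 2, the median of the mRNAs lay 0.04 above that of all genes. RpS2 alone was called lower, at -1.89 (standard error 0.36, edgeR adjusted p = 0.0200), where 1.82% of all genes were called, and 27 of 76 had an unadjusted P under 0.05 beside 8.02%. With only the libraries compared, 0 of the mRNAs were called lower, beside 0 of 8613 genes. When 1 library was left out, the number called moved both ways, over these mRNAs and over all genes. The median then ranged from -0.92 to -0.49. The study's rule took 17, beside 6.96%, and DESeq2 called 18, beside 6.58%. The cyst control polysome replicates differed more than 2-fold for 19 of the 74 mRNAs, against 0 of 74 in each of the other polysome groups. Without both replicates 1, 43 mRNAs were called lower, beside 10.5% of all genes.

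Set against the cyst control, the Nop60B RNAi ovaries had similar levels of these mRNAs. In input the median log2 fold change was 0.29, with 0 mRNAs called in either direction (2.18% of all genes were called higher and 2.32% lower) and 4 higher at an unadjusted P under 0.05 (9.95% of all genes, and 11.5% lower). By the study's rule 1 was higher, beside 9.01%. In polysomes the median was -0.12, with 0 called in either direction (5.52% of all genes lower and 3.98% higher) and 3 at an unadjusted P under 0.05, 1 lower (17.8% of all genes) and 2 higher (10.9%). DESeq2 called 5 higher in input and 2 higher in polysomes, beside 8.54% and 10.5% of all genes. Without both cyst control replicates 1, edgeR called 9 higher in input, beside 14.3%. The input libraries did not overlap for 19 of 74 mRNAs, higher in Nop60B RNAi, beside 33% of all genes. The polysome extremes were RpL38 at -1.33, RpL41 at -1.05 and RpS7 at -0.97, and RpS20 at 0.93, RpS2 at 0.82 and RpS9 at 0.61. RpL41 was at 4536 CPM in cyst control polysome replicate 1 and 1200.3 in replicate 2, and its value turned to 0.20 without replicate 1. These comparisons share the RNAi or the control libraries with those above.

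**Figure D3:**
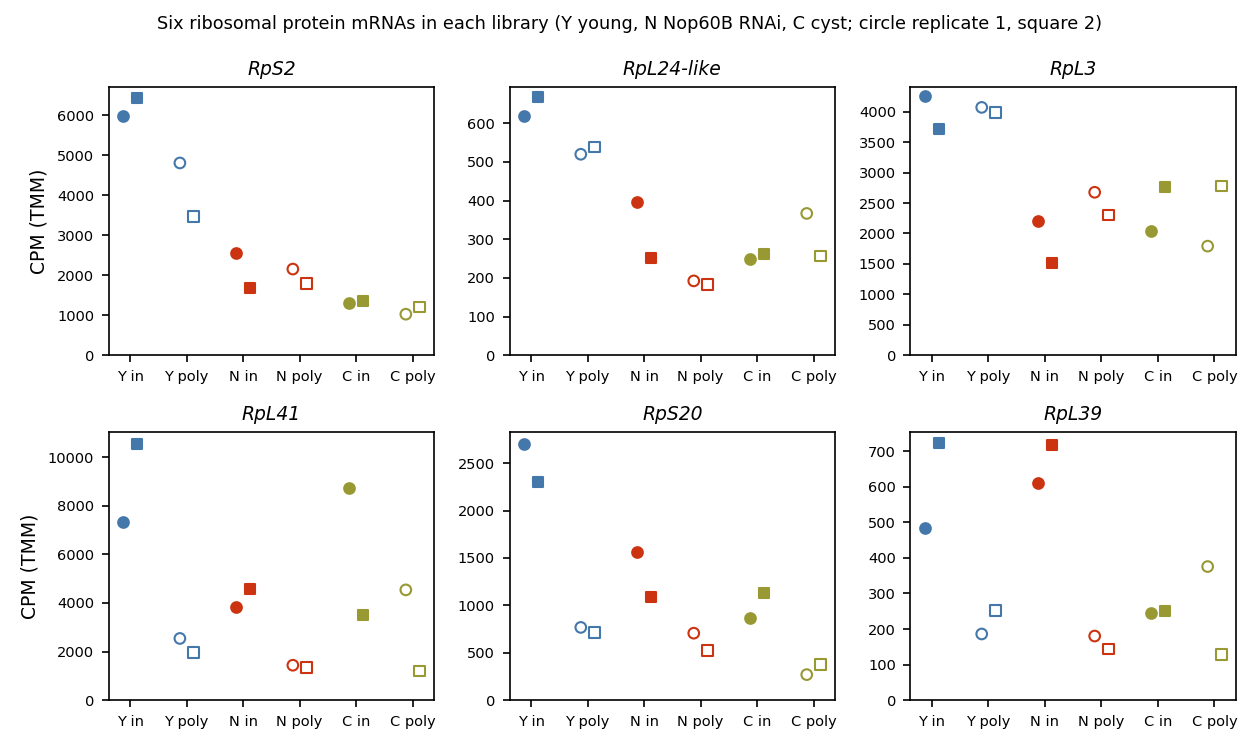
CPM after TMM scaling (y axis, from 0) of 6 ribosomal protein mRNAs in each library, for input (filled) and polysome (open) fractions of the young control, Nop60B RNAi and cyst control. RpS2 is lowest in the cyst control, RpL3 is about as high in polysomes as in input, and RpL41 and RpS20 are far lower in young control polysomes than in its inputs.

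Within each condition, polysomes were compared with input. Each library was scaled to a common size, so the ratio places an mRNA relative to other mRNAs. It does not give the share of an mRNA that sedimented with several ribosomes. The study reported fewer polysomes in Nop60B-depleted ovaries, and a loss shared by all mRNAs would not appear in this ratio. In the young control, 73 of the 74 abundant mRNAs were lower in polysomes without overlap, while 23% of all genes were. The median log2 ratio of polysome to input over the 76 was -0.90, against 0 over all genes. In Nop60B RNAi the median was again -0.90, against -0.09 over all genes, and 62 of 74 were lower without overlap (31% of all genes). In the cyst control the median was -0.43, against -0.08 over all genes, and 32 of 74 were lower without overlap (14% of all genes). Without cyst control polysome replicate 2, the median of the mRNAs lay 0.45 above that of all genes.

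No gene of the 10035 passed the adjusted threshold in edgeR in the young control, the RNAi ovaries or the cyst control (0% called), so 0 of the 76 mRNAs did. At an unadjusted P under 0.05, 43 of the 76 were lower in young control polysomes beside 1.45% of all genes. In Nop60B RNAi 41 were, beside 7.96%, and in the cyst control 6 were, beside 2.03%. By the study's rule 30, 30 and 2 were lower, beside 1.18%, 7.36% and 1.63%. DESeq2 called 6, 7 and 1 of them lower, beside 0.14%, 1.8% and 0.0199%. With only the young control libraries, edgeR called 5 lower there, beside 0.2% of all genes, and without the 4 cyst control libraries it called 21 lower in Nop60B RNAi, beside 2.63%. With the lysate as a block the counts at an unadjusted P under 0.05 were 62, 58 and 23, beside 1.45%, 4.99% and 4.03% of all genes, and 0 passed after adjustment in each, where 0.00997% of all genes did in the young control.

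The lysates gave different sizes of the same sign. The median of the 74 mRNAs was -0.72 and -1.11 in the 2 young control lysates, -1.04 and -0.71 in those of Nop60B RNAi, and -0.38 and -0.61 in those of the cyst control. All 74 were below 0 in young control lysate 1 and 73 in lysate 2. In the RNAi lysates 73 and 67 were, and in the cyst control 65 and 72.

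How far an mRNA lay below input went with its coding length. A longer coding sequence can hold more ribosomes at the same spacing, and whether this plays a part in these data was not tested. Over the 74 mRNAs, the log2 ratio in the young control had a Pearson correlation of 0.78 with log2 coding length (Spearman 0.716), and in Nop60B RNAi of 0.754 (0.708). In the cyst control it was 0.475 (0.485). Over the 1825 other coding genes at 100 CPM or more, the same correlations were -0.235, 0.304 and -0.411, and over 70 mitochondrial ribosomal proteins -0.025, 0.444 and 0.079. These are correlations across genes of the same libraries, given as descriptions.

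In the young control, the 10 ribosomal protein mRNAs with a coding length under 300 bases had a median log2 ratio of -1.45, and 43 other genes of that length had -0.08. From 300 to under 450 bases the medians were -1.04 for 22 mRNAs and 0.12 for 80 others, from 450 to under 600 bases -0.84 for 21 and 0.14 for 114, and from 600 to under 900 bases -0.72 for 18 and 0.13 for 209. Of 900 bases or more there were 3 members, RpL3, RpL4 and RpLP0, with a median of -0.33, beside 0.04 for 1379 others. Except for RpL3, every one of the 74 was below 0. Of the other genes in the young control, 28 of 43 under 300 bases and 25 of 80 from 300 to under 450 bases were below 0.

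The medians of the short mRNAs stood as follows in the other conditions, with no test of the difference between the sets. In Nop60B RNAi the other genes under 300 bases had a median log2 ratio of -0.82, and those from 300 to under 450 bases -0.30, while the ribosomal protein mRNAs had -1.48 and -1.06. In the cyst control the other genes of these lengths had 0.55 and 0.62, and the ribosomal protein mRNAs -0.81 and -0.56. In each condition the ribosomal protein mRNAs had the lower median at every length under 900 bases.

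**Figure D4:**
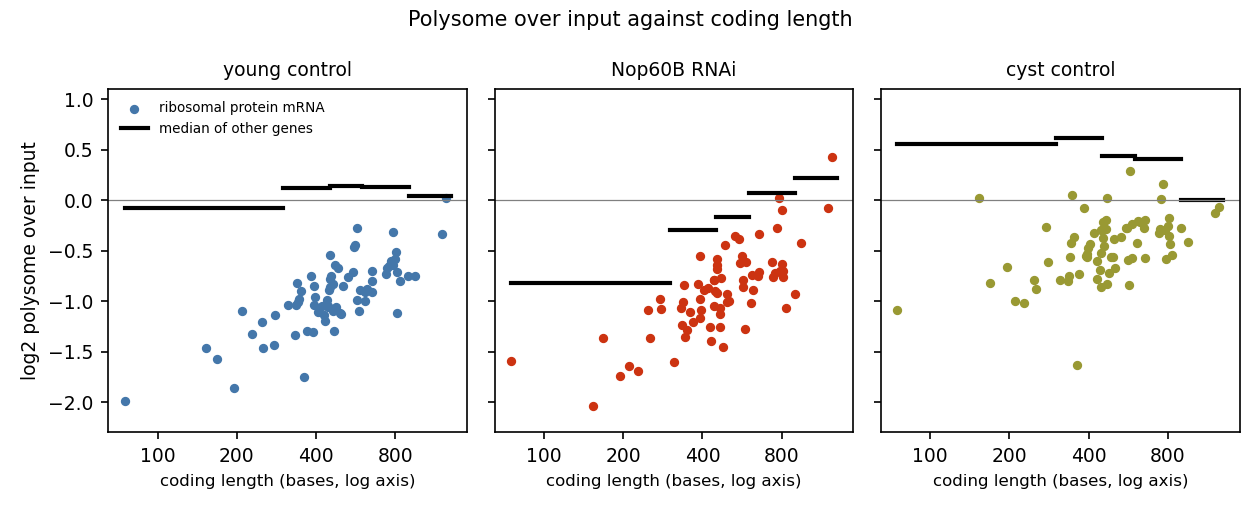
Log2 ratio of polysome to input (y axis) against coding length in bases (x axis, log scale) for the 74 abundant ribosomal protein mRNAs (points) in each condition, with the median of other genes at 100 CPM or more in 5 length classes (black bars, drawn over the range of lengths shown). The points rise with length in all 3 panels and lie below the bars of their length, except RpL3 in Nop60B RNAi, at 0.42.

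The lowest ratio in the young control was that of RpL41, with a coding sequence of 75 bases. It was at 7318 and 10542 CPM in the inputs and 2538.5 and 1961.5 in the polysomes, a log2 ratio of -1.99 (standard error 0.62, unadjusted P = 0.00805, edgeR adjusted p = 1). RpS28b, a small subunit protein with a coding length of 195 bases, followed at -1.86, with 4825 and 5798 CPM in input and 1633 and 1300.4 in polysomes. RpS20, of the small subunit, came next at -1.75 despite a coding length of 360 bases. It was at 2702 and 2297 CPM in input and 767 and 715 in polysomes (standard error 0.35, unadjusted P = 0.000385). The inputs and polysomes of these 3 did not overlap, and 73 of the 74 mRNAs and 23% of all genes were likewise lower without overlap. In the cyst control RpS20 had the lowest ratio of the 74, -1.63, and in Nop60B RNAi -1.11.

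The highest ratio in the young control was that of RpL3 (coding length 1248 bases), a large subunit protein near the peptidyl transferase centre, with 4260.5 and 3713 CPM in input and 4071 and 3990.4 in polysomes. Its ratio was 0.02 (standard error 0.36), with the groups overlapping, and it turned to -0.10 without young control input replicate 2. In Nop60B RNAi RpL3 was at 2201 and 1508 CPM in input and 2676 and 2302 in polysomes, a log2 ratio of 0.42 that did not pass the test (unadjusted P = 0.269). RpS15Ab, a low-level copy, had -0.04, and its sign turned to 0.17 without young control polysome replicate 1 and to 0.20 with library totals alone. RpL24-like had -0.28.

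Since these relative ratios were alike in the young control and Nop60B RNAi, their difference was small. The median change of the log2 ratio between these conditions was 0.04 over the 76 mRNAs, against -0.07 over all genes, and 0 were called by edgeR after adjustment or at an unadjusted P under 0.05 (0% of all genes after adjustment, and 2.65% lower and 0.588% higher without it). DESeq2 also called 0. The median ranged from -0.17 to 0.32 when 1 library was left out. The other genes under 300 bases had a median change of -0.72, and those from 300 to under 450 bases of -0.45, while the ribosomal protein mRNAs of these lengths had 0.11 and 0.03. The most negative members were RpS15Ab (-0.80, standard error 1.27), RpL39 (-0.57) and RpL36A (-0.56), and the most positive RpS20 (0.65, standard error 0.48), RpL13 (0.58) and RpS2 (0.48).

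Against the young control, the median change of the ratio in the cyst control was 0.47 over the 76, against -0.02 over all genes. The spread of this median between replicates was 0.60, and it ranged from 0.20 to 0.66 when 1 library was left out. The difference from all genes, 0.49, went to 0.16 without cyst control polysome replicate 1 and to 1.34 without replicate 2. No mRNA was called after adjustment (0% of all genes), and 1 was higher at an unadjusted P under 0.05, beside 0.827% of all genes. That mRNA, RpL39 (1.48, standard error 0.64), was also the 1 taken by the study's rule, beside 0.817%. Other genes of the same coding length had medians close to this, 0.67 and 0.47 in the 2 shortest classes, where the ribosomal protein mRNAs had 0.67 and 0.53. Between Nop60B RNAi and the cyst control the median change was -0.47, against -0.07 over all genes, with a spread between replicates of 0.68. The difference from all genes, -0.39, went to -0.02 without cyst control polysome replicate 1 and to -1.24 without replicate 2. With all libraries, 0 were called after adjustment (0% of all genes) and 2 were lower at an unadjusted P under 0.05, beside 4.87% of all genes. These were RpL24-like (-1.08) and RpL39 (-2.06), which the study's rule took too, beside 4.86%. The other genes of the 2 shortest classes had medians of -1.45 and -0.77 there, and the members -0.59 and -0.47.

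In Nop60B RNAi input against the young control, the medians were similar with and without the initiator letters, and in snoRNA hosts and other members. The 37 abundant mRNAs with CTTT at the start had a median log2 fold change of -0.80 in Nop60B RNAi input and the 37 without it -0.86, and their polysome-to-input medians in the young control were -0.99 and -0.86. Gaps were wider elsewhere, with polysome-to-input medians of -0.996 and -0.788 in Nop60B RNAi. In polysomes they were -0.29 and 0.07 for Nop60B RNAi against the cyst control, and -0.55 and -0.77 for the cyst control against the young control. No such gap was tested. On the same strand, 25 of the 80 genes overlap 57 annotated snoRNA genes, and whether these lie in introns was not checked. The 25 host mRNAs had a median log2 fold change of -0.88 in Nop60B RNAi input and the other 49 of -0.83.

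Mitochondrial ribosomal proteins, encoded in the nucleus and translated in the cytoplasm, were also lower in Nop60B RNAi, but did not share the low polysome level. Their median log2 fold change over 70 tested mRNAs was -0.94 in input and -1.04 in polysomes against the young control, and -1.48 in cyst control input. In Nop60B RNAi 0 of the 70 were called lower in input and 4 in polysomes, and in cyst control input 7 were. Of all 10035 genes, 123, 327 and 199 were called lower in the same order. Their median log2 ratio of polysome to input was 0.19 in the young control, with 12 of 70 below 0, beside 4990 of all 10035 genes. It was -0.06 in Nop60B RNAi and 0.10 in the cyst control.

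Of 12 translation factor genes whose mammalian orthologs are TOP mRNAs, 11 were measured, and eEF1alpha1 did not match the tables. Their median log2 fold change was -0.93 in Nop60B RNAi input and -0.79 in polysomes, with all 11 below 0 in both. Of all 10035 genes, 123 were called lower in input and 327 in polysomes. Of these 11, 1 was called lower in each, eEF1delta, an exchange factor for elongation. It was at 1468 and 1783 CPM in the young control inputs and 565 and 585 in the RNAi inputs (log2 fold change -1.50, edgeR adjusted p = 0.0345), and at -1.38 in polysomes (adjusted p = 0.0309). Unlike the ribosomal protein mRNAs, these 11 had a median log2 ratio of polysome to input of -0.27 in the young control and -0.12 in Nop60B RNAi. In the young control 0 of the 11 were lower at an unadjusted P under 0.05, beside 146 of all 10035 genes. The most abundant, eEF2, the translocation factor, was at 11776 and 12658 CPM in young control input and 11186 and 12440 in its polysomes.

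Among regulators of growth and of these promoters, 8 of 10 were measured, and Tor and S6k did not match the tables. Thor, the 4E-BP that binds eIF4E when TOR activity is low, was at 69.3 and 90.3 CPM in the young control inputs and 450.1 and 423 in the RNAi inputs. It rose by 2.45 in input (edgeR adjusted p = 0.0222) and by 2.01 in polysomes (adjusted p = 0.0273) on the log2 scale. Against the cyst control, none of the 8 regulators, Thor included, was called higher in Nop60B RNAi. Their largest log2 fold change there was 0.81 in input and 0.97 in polysomes. Lst8, a subunit of the TOR complexes, fell by 1.63 in polysomes (adjusted p = 0.0223) and had -0.56 in input. Myc, larp, raptor, Trf2, M1BP and Dref did not pass in either fraction in this comparison. Muscle, hemocyte and germline markers differed between the same groups, as given above, and their part in the levels of the ribosomal protein mRNAs was not tested.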

How the data were processed

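Ovary libraries of 3 conditions were analysed, each as input and polysome fractions in 2 replicates. The authors aligned 75-base single-end reads to dm6 with HISAT2 2.1.0, guided by RefSeq transcripts, and deposited raw counts per FlyBase gene made with featureCounts 1.4.6 (versions per the submitters' processing notes). The strand setting and the treatment of reads with several alignments are not given in the sources used here.

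Counts were analysed in R 4.3.3 with edgeR 4.0.16. Of 17023 genes, 16647 had an entry in Ensembl release 115, and 10035 were kept by filterByExpr over the 6 groups. All 12 libraries, scaled by TMM, entered 1 quasi-likelihood model with a mean for each group, and 12 contrasts were tested, with Benjamini-Hochberg adjustment over all genes at a threshold of 0.05. Printed CPM use TMM-scaled library sizes. DESeq2 1.42.0 and other filters, scalings, blocks and sets of libraries were alternatives. The study used RIVET with a 2-fold change and an unadjusted P under 0.05, and that rule was an alternative here. With 2 libraries against 2, an exact permutation test cannot give p under 0.333, and nothing in the labels says that replicates came from separate cultures or crosses, so p-values measure the spread between these libraries. The same numbers were taken to pair input and polysomes of 1 lysate. Over all genes, the deviations of replicate 1 from replicate 2 correlated between the fractions at 0.342 in the cyst control. The correlations were 0.0333 in the young control and -0.0122 in Nop60B RNAi. Reads carry no molecular identifiers. The fit was tested on simulated data.

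The members and the lists were chosen with earlier results of these data known. Genes named in full were the 3 highest and 3 lowest per kb, the 3 most positive and 3 most negative in 6 contrasts with a mean of at least 10 CPM, and members picked by identity (stalk, ubiquitin fusions, RpS6, RpL26, copies). Of the listed comparator genes, the symbols said not to match were left out. Sequences were read from the Release 6 genome at Ensembl canonical starts.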

Additional observations from a re-analysis of the deposited data

How the results depend on the processing

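In every setting run, the medians over the ribosomal protein mRNAs kept their sign for levels against the young control and for polysomes against input, while the counts of calls moved. Relative to the median of all genes, the cyst control polysome results did not hold. For cyst control against young control polysomes, the difference from all genes went from -0.76 to 0.04 without cyst control polysome replicate 2. For cyst control polysomes against input it went from -0.35 to 0.45, and to -0.09 without cyst control input replicate 1. The median change of the ratio between Nop60B RNAi and the young control, near 0, took both signs. Of 504 values of single mRNAs under alternatives, 444 kept direction and side of the threshold, 11 lost the call, 37 gained one and 12 changed sign. Counts below are in the order Nop60B RNAi against young control in input and polysomes, Nop60B RNAi against cyst control in input and polysomes, cyst control against young control in input and polysomes, and polysomes against input in the young control, Nop60B RNAi and the cyst control. They are mRNAs lower unless said otherwise, and comparisons not named kept counts within 1.5 times. The cause of these shifts was not tested.

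DESeq2 called 15 (and 1 higher), 9, 5 higher, 2 higher, 45, 18, 6, 7 and 1. The 2-fold rule with an unadjusted P gave 17 (and 1 higher), 12, 1 higher, 50, 17, 30, 30 and 2, none in Nop60B RNAi against cyst polysomes, and for the change of the ratio 2 lower against the cyst control and 1 higher in the cyst control against the young control. With only the libraries compared, there were 64 (and 1 higher) and 34 for Nop60B RNAi against the young control, 27 and 0 for the cyst control against it, and 5 between young control fractions. With no filter on low counts there were 4, 8, 1 higher, 1, 29, 13, 2, 6 and 1. Of all 13474 genes then tested, 326, 606, 457 higher, 889, 406, 487, 6, 46 and 21 were called in the same order. A filter at 10 CPM in 2 libraries gave 2 in Nop60B RNAi polysomes and 15 and 3 in the cyst control against the young control. Of the 7619 genes it kept, 368, 275 and 259 were called lower in the same order. In cyst control polysomes, DESeq2's size factors in edgeR, TMM without the members, and library totals each gave 2, where 209, 192 and 125 of all 10035 genes were called lower. Library totals gave 5 in Nop60B RNAi polysomes, where 271 of all genes were. Library totals also moved the median of all genes from 0.02 to 0.21 in Nop60B RNAi input.

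Chosen after seeing the data, leaving out both cyst control replicates 1 gave 9 higher for Nop60B RNAi against cyst control input, 73 and 43 for the cyst control against young control input and polysomes, and a median of -1.53 in that input. The 1 remaining cyst library is assumed to vary like the other groups. Leaving out the 4 cyst libraries gave 50 (and 1 higher) and 46 for Nop60B RNAi against the young control, and 21 for its polysomes against input.

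Without 1 library, counts were 0 in both comparisons of Nop60B RNAi with the young control, 0 to 14 lower and 0 to 3 higher in Nop60B RNAi against cyst polysomes, 0 to 1 and 0 to 20 in cyst control against young control input and polysomes, and 0 to 5 for cyst polysomes against input. For the change of the ratio they were 0 to 3 lower and 0 to 1 higher against the cyst control, and 0 to 1 lower and 0 to 1 higher in the cyst control against the young control. Medians ranged from -1.38 to -0.98 in cyst control input against the young control, from -0.04 to 0.53 and -0.29 to 0.17 in Nop60B RNAi against the cyst control in input and polysomes, and from -0.17 to 0.32 for the ratio in Nop60B RNAi against the young control.

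Single mRNAs changed sign as follows, with ranges over leaving out 1 library. Between young control fractions RpS15Ab had -0.28 to 0.17 (0.17 without polysome replicate 1) and 0.20 with library totals. RpL3 there had -0.10 to 0.11 (-0.10 without input replicate 2), -0.0022 with only those libraries and -0.0034 without the cyst libraries. In Nop60B RNAi against the young control, RpL39 in input had -0.20 to 0.37 (-0.20 without young control replicate 1). In polysomes RpS29 had -0.73 to 0.30 (0.27 without young control replicate 1, 0.30 without RNAi replicate 2) and RpL37A -0.62 to 0.045 (0.045 without young control replicate 1). RpL38 in cyst control input had -1.66 to 0.46 (0.46 without replicate 2). RpL41 in Nop60B RNAi against cyst polysomes had -1.66 to 0.20 (0.20 without cyst replicate 1), and 0.29 without both replicates 1.

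With the replicate number as a block, 11 of these mRNAs in place of 8 were called lower in cyst control against young control input. Of all 10035 genes 182 were called lower there, and no other count of calls over these mRNAs changed. With this block, 48 and 44 were lower at an unadjusted P under 0.05 in Nop60B RNAi input and polysomes, beside 8.11% and 12.9% of all genes. In cyst control input 67 were, beside 8.82%. In polysomes against input 51, 47 and 12 were, beside 1.35%, 7.41% and 1.8%. Between fractions the number is taken to mark a shared lysate, and between conditions the samples share only a number. Depth was lowest in cyst control polysome replicate 1, at 2780781 counts.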
